A study of Homo sapiens with 12 samples.

Results

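The 8 genes SREBF2, INSIG1, HMGCS1, IDI1, FDFT1, SQLE, LSS and DHCR7, which hold the master factor of cholesterol synthesis, its sterol-regulated partner and 6 enzymes of the route, were followed in RCC4 cells in which MESH1 was silenced. They were chosen by gene symbol, and all 8 were found among the 23710 gene rows of each count table and passed the filter on low counts in every comparison. RCC4 is an established clear cell renal carcinoma line that lacks functional VHL, and all libraries came from this 1 line. The 12 RNA-seq libraries fall into 2 experiments of 6, collected 72 h after transfection with 40 pmol of siRNA. Experiment 1 holds 3 libraries of siMESH1-CDS and 3 of a non-targeting siRNA (siNT), and experiment 2 holds 3 libraries of siMESH1-7002 and 3 of its own siNT. The control of each comparison was the siNT of the same experiment. The labels call the replicates biological and do not say how they were kept apart, so p-values measure the spread between these libraries. The counts are of bulk RNA, in which fewer cells of a kind and less RNA per cell cannot be told apart.

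Cholesterol is made from acetyl-CoA through mevalonate, isopentenyl units, squalene and lanosterol. SREBP2, the product of SREBF2, is held in the endoplasmic reticulum by SCAP and the INSIG proteins while sterols are plentiful. When sterols fall, SREBP2 travels to the Golgi, is cleaved there, and its released part enters the nucleus and switches on the genes of the route, INSIG1 and SREBF2 itself among them. Clear cell renal carcinoma is known for cells loaded with lipid and cholesteryl ester. MESH1, encoded by HDDC3, is a cytosolic phosphatase that removes a phosphate from NADPH, the cofactor that squalene synthase, squalene epoxidase and DHCR7 use.

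The target sequences of the siRNAs are shown because the changes below differ between them, with the bases that pair with guide positions 2 to 8, the seed, in capitals.
siMESH1-CDS: gggaaucacugACAUUGUg
siMESH1-7002: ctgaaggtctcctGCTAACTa
On GRCh38 with GENCODE 29 the first lies at chr15:90932064-90932082, in a coding exon of HDDC3, and the second at chr15:90931109-90931129, in the last exon, within the 3′ untranslated region. HDDC3 is read from the minus strand. The sequence that pairs with the siMESH1-CDS seed occurred once among the 3′ untranslated regions of the 8 members, at base 1912 of INSIG1, shown here with the match in capitals.
INSIG1: agttttcaACATTGTgttctttt
Of the 18615 genes with a 3′ untranslated region, 14.2% hold this match, and 5.51% hold the match to the siMESH1-7002 seed, which none of the 8 members has. A seed match is a description and not evidence of targeting.

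SREBP2 binds sterol regulatory elements, usually beside sites for NF-Y and SP1. The promoters were searched for TCACNCCA (a core of the sterol regulatory element), CCAAT (NF-Y) and GGGCGG (SP1) on both strands in RefSeq windows on GRCh38.p14 from 250 bases before to 50 after each annotated start. In 35116 such windows, 3.95% held the first motif, 34.6% the second and 44.95% the third, and motifs of different kinds may overlap. FDFT1 and SQLE had no entry. Among the other 6 members the sterol element core was matched only in SREBF2, 133 bases before the start, at chr22:41832961-41832990 on the plus strand, while each of the 6 had at least 1 CCAAT and 1 GGGCGG match in at least 1 of its windows. The pieces shown are those of the genes whose changes with siMESH1-7002 lead the results, with the matched letters in capitals and each read on the strand that spells the motif.
SREBF2, sterol element core: atgacgcgccaTCACCCCAcgcaccgcttc
SREBF2, CCAAT: aggctcatctcagCCAATgggcgagcgaag
INSIG1, CCAAT: gaggcggccgcaaCCAATgggaggccggcg
HMGCS1, CCAAT: gtggctcccacagCCAATcgcggccggtag
DHCR7, CCAAT: caggctcctcgaCCAATcacggggcgcgga
These lie at chr22:41832987-41833016 (SREBF2, minus strand), chr7:155297696-155297725 (INSIG1, minus strand), chr5:43313495-43313524 (HMGCS1, plus strand) and chr11:71448470-71448499 (DHCR7, minus strand), which is 106, 170, 100 and 94 bases before an annotated start of the gene. The absence of a match says only that these letters are not in the window.

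Reads in genes numbered 34063155 to 49134129 per library in experiment 1 and 24787804 to 31651125 in experiment 2. HDDC3 fell with both siRNAs, to 2.11% of the siNT mean with siMESH1-CDS (0 to 11 reads per library against 292 to 438) and to 10.4% with siMESH1-7002 (35 to 52 reads against 326 to 442). The log2 changes were -5.56 ± 0.82 and -3.25 ± 0.13. HDDC3 has 56.8% GC, and with a correction for GC content (described below) they were -3.68 ± 0.44 and -3.12 ± 0.12. In a test over all 12 libraries scaled together, the difference between the siRNAs was 2.47 on the log2 scale (adjusted p = 0.00370). It was 0.47 (adjusted p = 0.369) with the correction. HDDC3 shares 1334 exon bases with UNC45A on the other strand, and the strand setting of the counting is not given in the sources used here. All 7 renal carcinoma markers read (PAX8, PAX2, CA9, NDUFA4L2, VIM, KRT8, KRT18) had reads in every library, with summed levels of 3773 to 4012 CPM (counts scaled to library size, with the trimmed mean of M values, TMM) in siNT and 3544 to 3585 CPM in siMESH1-CDS, and of 7628 to 8108 and 7216 to 7412 CPM in experiment 2. VIM carried most of this sum, at a mean of 3511 CPM in siNT and 3486 CPM with siMESH1-CDS. The other 6 were called lower with siMESH1-CDS, PAX8 from 168.4 to 58.4 CPM and KRT18 from 77.3 to 2.76 CPM among them, and the median log2 change of the 7 was -2.95. Of the 7, 3 were higher and 3 lower with the GC correction, and with siMESH1-7002 1 was higher and 3 lower. Of 8 markers of leukocytes, endothelium, liver and muscle, none passed 11 reads in any library, their sum stayed between 0.130 and 0.528 CPM, and CD3E and PECAM1 were at 0 in all 12.

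The siMESH1-CDS libraries stood apart in base composition. When genes were sorted into deciles by the GC content of their longest coding transcript, the median log2 change with siMESH1-CDS ran from 1.11 in the decile with the least GC to -3.67 in the decile with the most. With siMESH1-7002 it ran from 0.14 to -0.09. In the GC-richest decile the 3 siMESH1-CDS libraries lay at -2.62, -3.14 and -1.98 relative to siNT, replicate 2 being the lowest. The changes of the members with siMESH1-CDS are therefore also given with a correction for GC content, an offset per gene and library taken from a smooth curve of log2 CPM on GC content. The part of GC content in these changes was not tested otherwise.

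Both siRNAs changed some members, and HMGCS1 and DHCR7 changed in the same direction with each. With siMESH1-CDS, 2 members rose (HMGCS1 and SQLE), 3 fell (SREBF2, LSS and DHCR7) and 3 did not pass the test, where 36.9% of the 13395 genes tested were called higher and 37.2% lower. With siMESH1-7002, 3 rose (SREBF2, INSIG1 and HMGCS1), 2 fell (FDFT1 and DHCR7) and 3 did not pass, where 26.6% of the 13568 genes tested were called higher and 26.7% lower. These counts are at an adjusted p under 0.05 by edgeR's quasi-likelihood test. In a single fit of all 4 groups, which shares the wider spread of experiment 1, INSIG1 alone of the members was called with siMESH1-7002. Of all 14154 genes tested in that fit, 2582 were called with siMESH1-7002. HMGCS1, SREBF2, DHCR7 and FDFT1 kept their sign in it (adjusted p = 0.0546, 0.722, 0.545 and 0.831). The median log2 change of the members was -0.25 with siMESH1-CDS and 0.07 with siMESH1-7002, beside -0.05 and 0.01 for all genes tested. The groups of 5 members did not overlap in either experiment, as was so for 82.7% of all genes tested with siMESH1-CDS and 59.5% with siMESH1-7002.

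**Figure D1:**
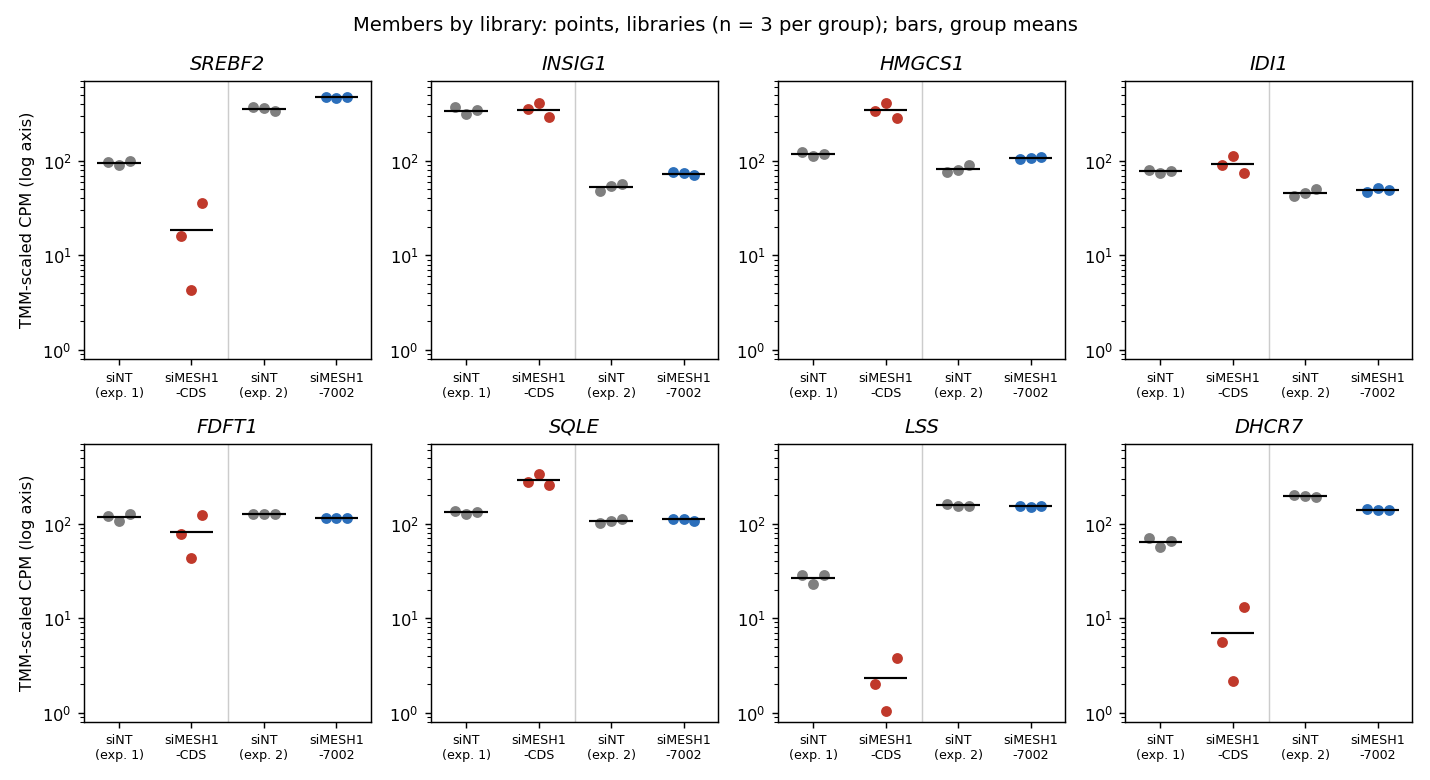
TMM-scaled CPM (log axis) of the 8 members in each library, with 3 libraries per group and a bar at each group mean; the vertical line divides experiment 1 (left) from experiment 2 (right). SREBF2, LSS and DHCR7 sit far below siNT with siMESH1-CDS, while with siMESH1-7002 SREBF2 sits above and DHCR7 below its siNT.

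SREBF2, on chromosome 22, encodes the factor itself. In experiment 1 it stood at 96.5, 90.4 and 100.5 CPM in siNT and at 15.8, 4.29 and 36.0 CPM with siMESH1-CDS. Every treated library was below every siNT library, and replicate 2, the library furthest shifted by GC content, was the lowest. The log2 change was -2.36 ± 0.71 (SE, n = 3 per group; adjusted p = 0.0235), beside a median of -2.57 for the decile of genes with like GC content. With the GC correction it was -0.29 ± 0.25 (adjusted p = 0.344) and the groups overlapped, so the call rests on the uncorrected scale. The call was also lost without any of siNT replicates 1, 2 or 3 (log2 change -2.35, -2.40 and -2.32; adjusted p = 0.0565, 0.0555 and 0.0572) or without siMESH1-CDS replicate 1 (-2.24; adjusted p = 0.0791). The change was -1.87 without siMESH1-CDS replicate 2 and -3.27 without replicate 3.

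In experiment 2 SREBF2 ran the other way. It stood at 375.6, 360.0 and 336.6 CPM in siNT and at 476.3, 467.4 and 469.3 CPM with siMESH1-7002, 1.32 times the siNT mean. The groups were far apart, and the treated libraries had an SD of only 4.73 CPM. The rise was 0.40 ± 0.04 on the log2 scale (adjusted p = 1.31e-06), and 0.53 ± 0.03 with the GC correction. SREBF2 shares 280 exon bases with an antisense gene that has no row in the count tables, and its intron holds MIR33A.

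INSIG1 encodes the retention protein that sterols engage and is itself a classic SREBP2 target. It stood at 372.1, 310.1 and 341.7 CPM in siNT and 350.2, 405.0 and 294.0 CPM with siMESH1-CDS, so the groups overlapped. Its change was 0.04 ± 0.14 on the log2 scale (adjusted p = 0.830), its sign turned under several settings, and it was -0.17 ± 0.13 (adjusted p = 0.292) with the GC correction. This is the member with the siMESH1-CDS seed match.

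With siMESH1-7002 INSIG1 showed the greatest rise among the 8 on the uncorrected scale. Levels went from 48.6, 54.0 and 57.5 CPM in siNT to 75.4, 73.8 and 70.9 CPM, with no overlap. This was a log2 change of 0.46 ± 0.06 (adjusted p = 8.93e-06), 1.37 times the siNT mean, and 0.51 ± 0.04 with the GC correction, where SREBF2 stood at 0.53.

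HMGCS1 makes HMG-CoA from acetyl-CoA and acetoacetyl-CoA, at the head of the route. It stood at 122.8, 113.4 and 117.9 CPM in siNT and at 338.9, 410.5 and 284.8 CPM with siMESH1-CDS. The lowest treated library was more than 2 times the highest siNT library. The rise was 1.55 ± 0.15 on the log2 scale (adjusted p = 0.000475), above the median of 1.02 for its decile of GC content, and 0.78 ± 0.06 (adjusted p = 8.93e-05) with the GC correction. With siMESH1-7002 the levels were 104.5, 106.1 and 110.7 CPM against 76.3, 80.9 and 89.7 CPM in siNT. The groups again did not overlap, and the log2 change was 0.38 ± 0.06 (adjusted p = 3.88e-05), and 0.36 ± 0.04 with the correction. HMGCS1 was thus higher with each siRNA on both scales.

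IDI1, the isomerase that makes dimethylallyl from isopentenyl diphosphate, did not pass the test with either siRNA. It stood at 80.6, 74.3 and 78.7 CPM in siNT and at 91.2, 111.4 and 74.4 CPM with siMESH1-CDS. A log2 change of 0.25 ± 0.16 (adjusted p = 0.201) lay below the median of 0.85 for its decile of GC content. With the GC correction the sign turned to -0.48 ± 0.07 (adjusted p = 0.00169), and the corrected groups did not overlap. Without siMESH1-CDS replicate 3 the uncorrected change was 0.36 (adjusted p = 0.0274). In experiment 2 it stood at 42.5, 45.3 and 50.7 CPM in siNT and at 46.7, 51.2 and 49.6 CPM with siMESH1-7002, a log2 change of 0.09 ± 0.07 (adjusted p = 0.256) that came to 0.17 (adjusted p = 0.00559) without siNT replicate 3. IDI1 shares 643 exon bases with IDI2-AS1 on the other strand and has a close relative, IDI2, so reads of the 3 genes may be mixed.

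FDFT1, squalene synthase, joins farnesyl units and commits them to sterols. It stood at 121.5, 107.1 and 125.2 CPM in siNT and at 77.9, 42.9 and 123.1 CPM with siMESH1-CDS. Replicate 3 lay among the siNT libraries while replicate 2 was far below them. The log2 change of -0.54 ± 0.36 did not pass (adjusted p = 0.219). It was -0.98 (adjusted p = 0.0138) without siMESH1-CDS replicate 3 and -0.69 (adjusted p = 0.0408) in the single fit of all 4 groups. With the GC correction it was -0.44 ± 0.29 (adjusted p = 0.214). With siMESH1-7002 the levels were 113.7, 115.7 and 114.9 CPM against 126.5, 127.8 and 125.8 CPM in siNT. The groups did not overlap, but the change was small, at -0.14 ± 0.04 (adjusted p = 0.0123), and was not called with the GC correction (-0.06; adjusted p = 0.0844), without siNT replicate 2 (-0.13; adjusted p = 0.0563) or without siMESH1-7002 replicate 1 (-0.14; adjusted p = 0.0634).

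SQLE, squalene epoxidase, adds the oxygen that later forms the hydroxyl group of cholesterol. It stood at 135.6, 126.0 and 131.9 CPM in siNT and at 277.8, 337.1 and 256.6 CPM with siMESH1-CDS, 2.21 times the siNT mean. The groups did not overlap, and the log2 change was 1.15 ± 0.12 (adjusted p = 0.000617), above the upper quartile of 0.85 for its decile of GC content, and 1.01 ± 0.12 with the correction. With siMESH1-7002 the levels of 112.4, 112.6 and 107.6 CPM overlapped those of siNT, at 102.0, 105.8 and 112.6 CPM. That log2 change was 0.05 ± 0.05 (adjusted p = 0.388). It passed the test with the GC correction (0.11; adjusted p = 0.00816) and without siNT replicate 3 (0.09; adjusted p = 0.0361).

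LSS, lanosterol synthase, closes the ring system. It had the largest fall of the 8 with siMESH1-CDS, from 28.8, 22.7 and 28.5 CPM to 2.02, 1.04 and 3.83 CPM, on 40 to 133 reads per treated library. No treated library reached the siNT range, and the log2 change was -3.54 ± 0.50 (adjusted p = 0.00147), below the median of -2.57 for its decile of GC content, and -1.18 ± 0.12 (adjusted p = 0.000341) with the correction. Without siMESH1-CDS replicate 3 the uncorrected change was -4.15. In experiment 2 it stood at 160.4, 155.1 and 153.3 CPM in siNT and at 154.0, 150.2 and 153.8 CPM with siMESH1-7002, and the groups overlapped. Its log2 change was -0.03 ± 0.04 (adjusted p = 0.541), which turned to 0.10 ± 0.03 (adjusted p = 0.0121) with the GC correction, which itself moved the median of all genes from 0.01 to 0.08. LSS shares exon bases with 2 genes on the other strand that have no row in the count tables.

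DHCR7, which reduces 7-dehydrocholesterol to cholesterol in the last step of one branch, was lower with each siRNA on both scales. With siMESH1-CDS it went from 70.8, 56.2 and 65.7 CPM to 5.60, 2.18 and 13.2 CPM. The log2 change was -3.20 ± 0.64 (adjusted p = 0.00534), and -0.96 ± 0.15 (adjusted p = 0.00214) with the correction. The uncorrected change was -2.75 without siMESH1-CDS replicate 2 and -4.07 without replicate 3. With siMESH1-7002 it went from 200.1, 195.1 and 192.4 CPM to 141.4, 139.7 and 138.6 CPM, 71.4% of the siNT mean. That log2 change of -0.49 ± 0.04 (adjusted p = 7.27e-08) was the largest fall of a member in experiment 2, and it was -0.35 ± 0.03 with the correction.

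**Figure D2:**
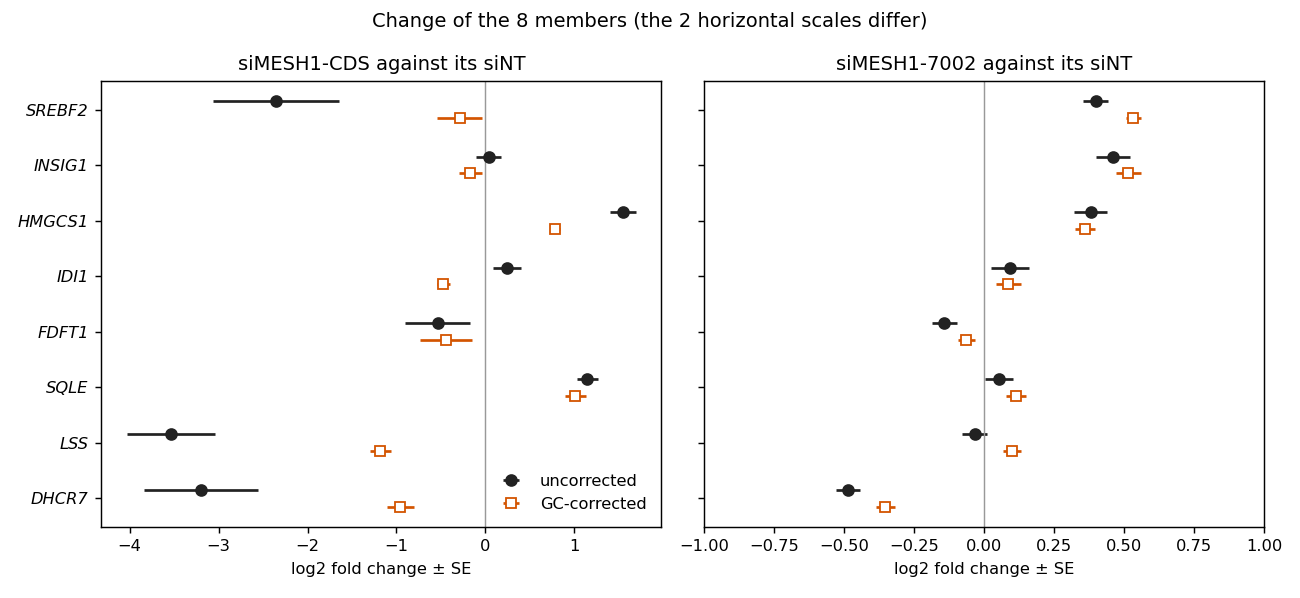
Log2 fold change ± SE (3 libraries per group) of each member with siMESH1-CDS (left) and siMESH1-7002 (right), uncorrected (filled) and corrected for GC content (open). The correction moves SREBF2, LSS and DHCR7 by 2.07, 2.36 and 2.24 with siMESH1-CDS and no member by more than 0.13 with siMESH1-7002.

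The members fall into distinct classes of GC content. SREBF2, LSS and DHCR7, at 57.9%, 58.3% and 58.3% GC, lie in the decile with the second highest GC content, where the middle range of changes with siMESH1-CDS (lower to upper quartile) was -3.65 to -1.52, and all 3 lay inside it. HMGCS1 (40.2%) and IDI1 (41.1%) lie in GC-poor deciles, and INSIG1 (46.0%), SQLE (46.5%) and FDFT1 (48.6%) in the middle. HMGCS1 and SQLE lay above the upper quartile of their deciles, and IDI1 lay below the lower quartile of 0.31. With siMESH1-7002 no decile had a median beyond 0.14, and the rises of SREBF2, INSIG1 and HMGCS1 and the fall of DHCR7 lay 0.28 to 0.47 from the median of their deciles. With the GC correction, 2 members were called higher and 3 lower with siMESH1-CDS, where 40.4% and 27.0% of all genes were, and the members lower were then IDI1, LSS and DHCR7. The correction moved the median of all genes with siMESH1-CDS from -0.05 to 0.17, so that each corrected value may be read against 0.17. With siMESH1-7002 it moved that median from 0.01 to 0.08, and 5 members were called higher (SQLE and LSS added) and 1 lower (DHCR7), where 39.4% and 23.5% of all genes were.

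The change differed between the siRNAs for 6 of the 8 members in a test of the difference itself over all 12 libraries, where 69.7% of the 14154 genes tested did. The difference (change with siMESH1-7002 minus change with siMESH1-CDS, log2) was 2.90 ± 0.74 for SREBF2, 0.57 ± 0.17 for INSIG1, 3.66 ± 0.46 for LSS and 2.86 ± 0.64 for DHCR7, all higher with siMESH1-7002. It was -1.02 ± 0.17 for HMGCS1 and -0.94 ± 0.13 for SQLE, which rose more with siMESH1-CDS. This fit scaled all 12 libraries together, so its differences are not exact subtractions of the changes given above. The median difference of all genes tested was 0.24 in it, and -0.05 with the GC correction, so each difference may be read against that median. Without siMESH1-CDS replicate 3 the differences of SREBF2, LSS and DHCR7 were 3.75, 4.20 and 3.67. FDFT1 (0.54 ± 0.40; adjusted p = 0.240) and IDI1 (adjusted p = 0.995) did not pass. With the GC correction 7 of 8 passed, beside 61.0% of all genes, and the differences of SREBF2, LSS and DHCR7 shrank to 0.75, 1.22 and 0.52, while IDI1 came to 0.63 ± 0.09 (adjusted p = 0.000102). The siRNA, the experiment, its lanes and its GC pattern change together and cannot be told apart in this difference. Replicates 1, 2 and 3 of experiment 1 are listed on lanes 4, 5 and 6 for siNT and on lanes 6, 7 and 4 for siMESH1-CDS. All libraries of experiment 2 are listed on lane 2. Lane 7 held siMESH1-CDS replicate 2 alone, so lane and siRNA are also partly mixed within experiment 1.

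The remaining steps of the route were read from 13 further enzymes. With siMESH1-CDS 3 of the 13 rose, 8 fell and 2 did not pass, where 36.9% of all genes tested were called higher and 37.2% lower. Their median log2 change was -0.96, beside -0.05 for all genes. MVK and PMVK lie in the decile whose median with siMESH1-CDS was -2.57, and MVD and TM7SF2 in the GC-richest decile, at -3.67. With the GC correction 2 of the 13 were called higher and 8 lower with siMESH1-CDS, where 40.4% and 27.0% of all genes were. Their corrected median was -0.85, beside 0.17 for all genes. With siMESH1-7002 2 of the 13 rose, 8 fell and 3 did not pass, where 26.6% and 26.7% of all genes were called. Their median was -0.21, beside 0.01 for all genes. Over all 19 enzymes, members included, 2 were higher with both siRNAs (HMGCS1 and SC5DL) and 7 lower with both, where 15.5% and 15.1% of the 12824 genes tested in both experiments were. With the GC correction these counts were 3 and 6, where 21.4% and 10.7% of genes were.

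Of the 4 further enzymes named by rule, EBP and SC5DL act late in the route and ACAT2 and FDPS early. The rule took genes called in the same direction with both siRNAs, here and in the lists below. Their shared direction was thus set by the choice and is not a result. CYP51A1 and PMVK were called with opposite signs, at 1.29 and -3.56 with siMESH1-CDS and at -0.15 and 0.18 with siMESH1-7002. The fall of PMVK was not called with the GC correction (-1.16; adjusted p = 0.0731). EBP, the sterol isomerase, had log2 changes of -4.06 ± 1.02 (adjusted p = 0.0123) with siMESH1-CDS and -0.55 ± 0.06 (adjusted p = 1.16e-06) with siMESH1-7002. Without siMESH1-CDS replicate 1, 2 or 3 the first was -3.93 (adjusted p = 0.0511), -3.49 or -5.28. ACAT2, which joins acetyl-CoA units to make the acetoacetyl-CoA that HMGCS1 uses, fell from 103.9 ± 0.92 to 59.0 ± 5.12 CPM (SD) with siMESH1-CDS and from 64.0 ± 3.85 to 51.2 ± 0.60 CPM with siMESH1-7002. The steps of ACAT2 and HMGCS1 follow each other, and with each siRNA the first was lower and the second higher, also with the GC correction (-0.40 and 0.78, then -0.23 and 0.36). SC5DL (SC5D), the desaturase that makes 7-dehydrocholesterol, the substrate of DHCR7, rose by 1.18 ± 0.19 and 0.44 ± 0.09 on the log2 scale. On each side of 7-dehydrocholesterol, SC5DL was higher and DHCR7 lower with each siRNA, also with the GC correction (0.35 and -0.96, then 0.41 and -0.35). ACAT2 and SC5DL were named for their shared direction. The repeat of these contrasts with both siRNAs was thus partly set by the choice and is not a result. FDPS, which makes farnesyl diphosphate, fell by 2.24 ± 0.83 and by 0.39 ± 0.04. Its change with siMESH1-CDS was not called with the GC correction (-0.98; adjusted p = 0.128), without siNT replicate 1, 2 or 3 (-2.24, -2.27 and -2.22; adjusted p = 0.0980, 0.0972 and 0.0976) or without siMESH1-CDS replicate 1 (-2.05; adjusted p = 0.137), and it was -3.43 without siMESH1-CDS replicate 3. In the single fit of all 4 groups SC5DL, EBP and FDPS, like DHCR7 and HMGCS1, were not called with siMESH1-7002 (adjusted p = 0.129, 0.675 and 0.773 for the first 3). SC5DL and DHCR7 kept their signs in the single fit (0.43 and -0.49). Their calls in experiment 2 thus rest on the fit of that experiment alone. The count of the 13 that fell was 5 without siNT replicate 1, 2 or 3 of experiment 1 and 4 without siMESH1-CDS replicate 1.

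**Figure D3:**
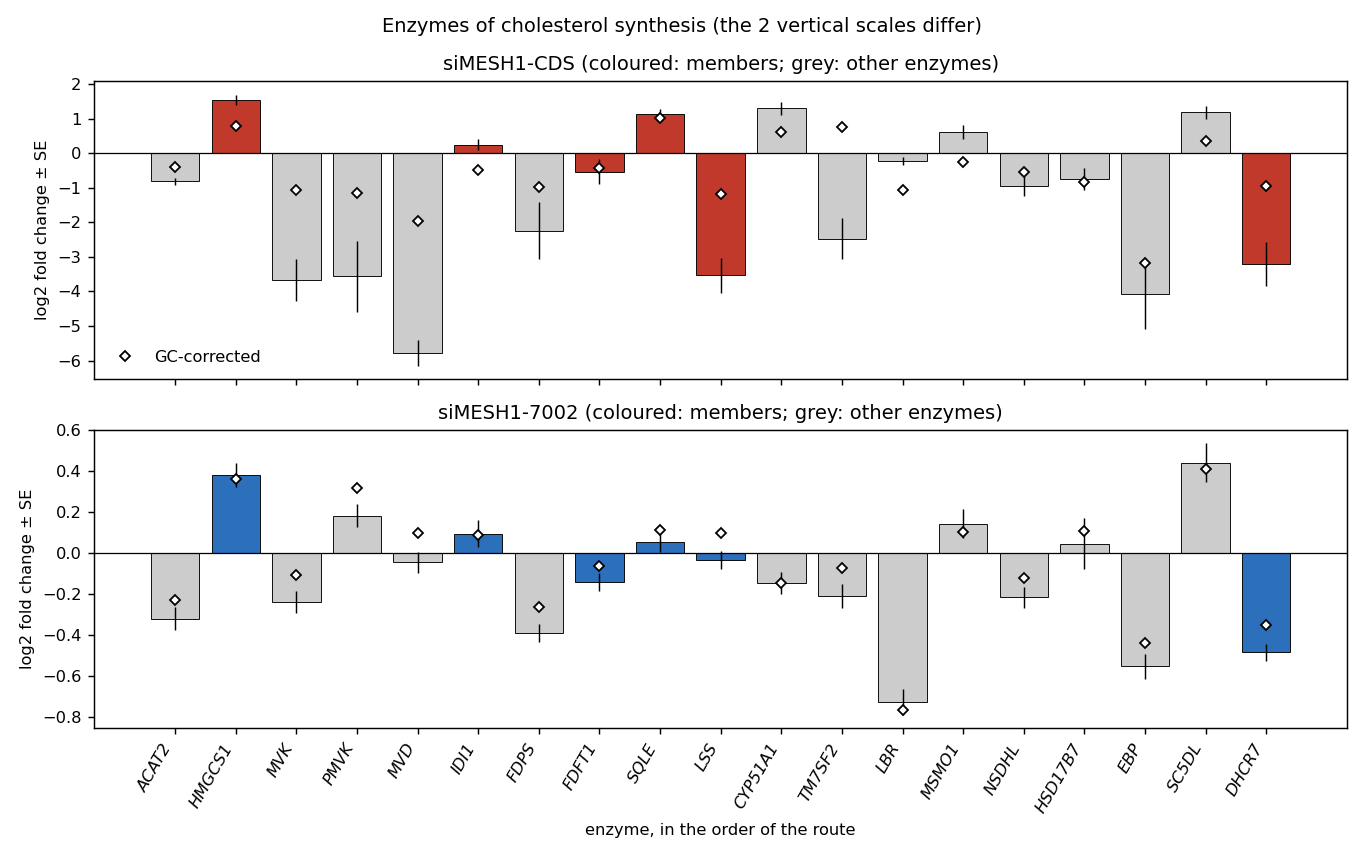
Log2 fold change ± SE of 19 enzymes in the order of the route with siMESH1-CDS (top) and siMESH1-7002 (bottom); members are coloured, other enzymes grey, and diamonds give the GC-corrected value. By the uncorrected values, HMGCS1 and SC5DL are the 2 called higher in both panels. ACAT2, MVK, FDPS, TM7SF2, NSDHL, EBP and DHCR7 are the 7 called lower in both. Other enzymes lie on the same side of 0 in both panels without a call in both.

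Among 10 genes that cleave or hold SREBP or sense sterols, 3 rose and 3 fell with siMESH1-CDS, and 3 rose and 4 fell with siMESH1-7002. Of all genes tested, 36.9% rose and 37.2% fell with siMESH1-CDS, and 26.6% and 26.7% with siMESH1-7002. RNF139, an ER ubiquitin ligase, rose by 2.26 ± 0.21 and 0.26 ± 0.07. ERLIN1, an ER membrane protein that binds cholesterol, fell by 1.47 ± 0.09 and 0.25 ± 0.05. SREBF1, the sister gene of SREBF2 that drives fatty acid synthesis, fell by 4.13 ± 0.82 with siMESH1-CDS, which was not called with the GC correction (-0.59; adjusted p = 0.110) and was -3.58 or -5.51 without siMESH1-CDS replicate 2 or 3, and by 0.26 ± 0.05 with siMESH1-7002. In experiment 2 the sister genes thus passed the test with opposite signs, SREBF2 at 0.40 and SREBF1 at -0.26. In the single fit of all 4 groups neither was called (adjusted p = 0.722 and 0.768), nor was RNF139 (adjusted p = 0.361).

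Of 8 genes of sterol uptake, traffic and storage, 2 rose and 2 fell with siMESH1-CDS, and 5 rose and 2 fell with siMESH1-7002. LIPA, the lysosomal lipase that frees cholesterol from its esters, rose by 1.35 ± 0.12 and 0.46 ± 0.06 (adjusted p = 0.000381 and 3.19e-06). VLDLR, a lipoprotein receptor, rose by 1.26 ± 0.08 and 0.17 ± 0.05, the latter not called in the single fit (adjusted p = 0.0890). Among 5 genes of the LXR system, which answers to excess sterol, 4 were tested, and ABCG1 had 0 reads in every library of experiment 1. ABCA1, the exporter of cholesterol, rose with each siRNA, from 72.9 ± 5.5 to 147.0 ± 11.3 CPM (SD) and from 57.7 ± 5.9 to 116.8 ± 8.1 CPM. These are log2 changes of 1.01 ± 0.10 (adjusted p = 0.000575) and 1.02 ± 0.07 (adjusted p = 2.53e-09), and of 0.74 and 1.06 with the GC correction. In the fit of all 12 libraries, where the median of all genes was 0.24, the difference between the siRNAs was 0.16 (adjusted p = 0.344). It passed the test with the GC correction (0.38, adjusted p = 0.0202) and with GC and a replicate block (0.39, adjusted p = 0.0221). In experiment 2 ABCA1, SREBF2, INSIG1 and HMGCS1 were each called higher, while FDFT1 and DHCR7 were called lower. The other 3 LXR genes tested were not called there, NR1H2 at 0.05, NR1H3 at 0.04 and MYLIP at -0.32 (adjusted p = 0.0539). Of the LXR genes, 2 were lower and 2 higher with siMESH1-CDS, and the 2 lower were not called with the GC correction. Without siNT replicate 1, 2 or 3 of experiment 1 only 1 of them was called. Every list count is to be read against the share of all genes called, given above.

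The controls of the experiments differed in the level of the members. INSIG1 was 6.39 times as high in siNT of experiment 1 (341.3 ± 31 CPM, SD, n = 3) as in siNT of experiment 2 (53.4 ± 4.5 CPM), and of 11620 genes at 1 CPM or more in both controls only 0.620% had a larger ratio. Its log2 ratio of 2.68 lay above the 95th percentile (1.71) of the decile of genes with like GC content. The GC-rich members were lower in experiment 1, LSS by 5.86 times, SREBF2 by 3.73 times and DHCR7 by 3.05 times, each within the range of its decile, whose median log2 ratio was -1.15. HMGCS1, IDI1, FDFT1 and SQLE differed by 0.76 or less on the log2 scale. No test was made, since the experiment and all that differed with it cannot be told apart, and CPM were scaled within each experiment.

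**Figure D4:**
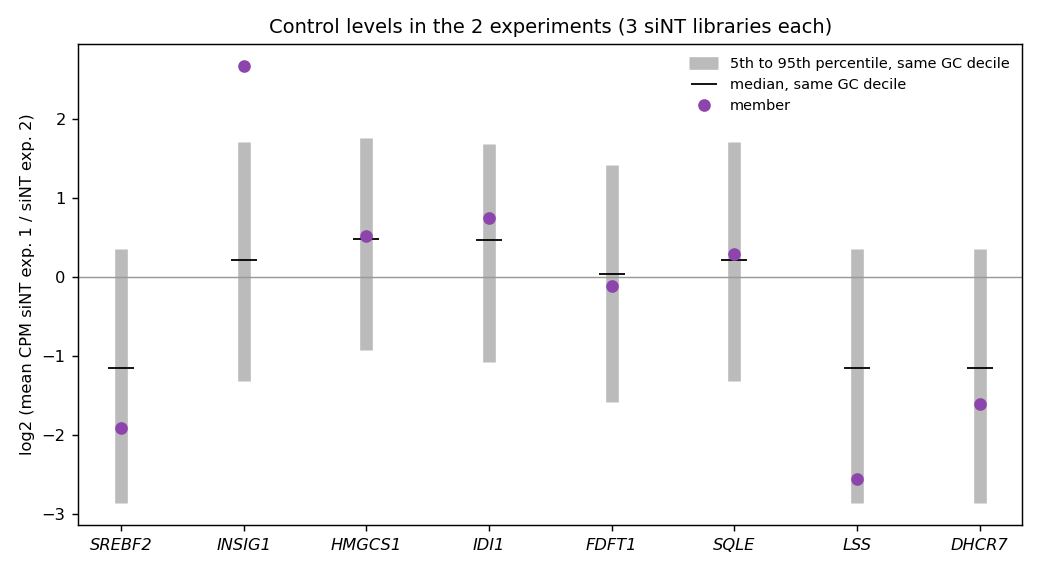
Log2 ratio of the mean CPM in siNT of experiment 1 to that in siNT of experiment 2 (3 libraries each) for each member (points), with the median (dash) and the 5th to 95th percentile (grey bar) of genes in the same decile of GC content. INSIG1, at 2.68, lies above its bar, and the other 7 lie inside theirs.

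Per kilobase of the longest coding transcript, the order of levels in siNT also changed between experiments. In experiment 1 it ran from INSIG1 (113.4 ± 10.3 CPM per kb) through FDFT1 (44.3), SQLE (44.3), HMGCS1 (33.7), DHCR7 (24.1), IDI1 (23.1) and SREBF2 (17.9) to LSS (5.40). FDFT1 and SQLE overlapped, as did DHCR7 and IDI1, and other neighbours did not. In experiment 2 it ran from DHCR7 (73.5 ± 1.5 CPM per kb) through SREBF2 (66.6), FDFT1 (47.6), SQLE (36.1), LSS (31.7), HMGCS1 (23.5) and INSIG1 (17.7) to IDI1 (13.7), with no overlap between neighbours. With siMESH1-7002 SREBF2, at 87.8 ± 0.9 CPM per kb, passed DHCR7, at 52.5 ± 0.5, to the top of the order. With siMESH1-CDS the order began with INSIG1 (116.2), HMGCS1 (98.3) and SQLE (98.1), which overlapped, and ended with LSS (0.465).

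Across the 12 libraries, each taken relative to the siNT mean of its experiment, the genes most like SREBF2 by Pearson's r on log2 CPM were SFXN3, BAX and IDH2 (r = 0.9997, 0.9996 and 0.9995), of 8172 genes at 10 CPM or more. The most like the mean of the other 7 members were RBM22, POLR3A and GUCD1. Likeness of this kind was common, since 2512 genes had r over 0.9 with SREBF2. The 12 points share 3 siMESH1-CDS libraries that lie far from the other 9, so r mostly describes those libraries. SREBF2 went with LSS (r = 0.97) and DHCR7 (r = 0.97) and against SQLE (r = -0.95) and HMGCS1 (r = -0.90), and only weakly with INSIG1 (r = 0.36).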

How the data were processed

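Groups of RCC4 libraries follow the labels, which name the siRNA and its experiment. The authors deposited raw counts of reads per gene, and the submitters' processing notes name HISAT2, HTSeq, FastQC, DESeq2 and the build hg19, with no versions. Libraries were made with a stranded mRNA kit. The authors' own tables of mean normalized counts, fold changes and p-values were not used. Rows that name no gene (38.9% to 49.3% of reads per library) were left out. Tests on these counts used edgeR 4.0.16 (R 4.3.3; filterByExpr, TMM scaling, quasi-likelihood F test, Benjamini-Hochberg adjustment over all genes tested, threshold 0.05), for each experiment alone and, for the difference between siRNAs, over all 12 libraries with a shared spread. SE are from this fit and SD over 3 libraries. CPM were TMM-scaled within each experiment, and before that scaling a gene at 1 CPM rests on about 25 to 49 reads. The steps were tested on simulated counts. No 2 libraries were alike within sampling noise.

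GC content, lengths and 3′ untranslated regions came from GENCODE 29 on GRCh38, matched by symbol (21257 of 23710 by name, 1194 by an older symbol), since no annotation of hg19 was used here. The GC correction is a lowess smooth (span 0.3) of log2 CPM with a prior count of 1. Alternatives were no filter, a filter of 10 counts in each library, DESeq2 1.42.0, library size in place of TMM, 1 fit of 4 groups, a replicate block, lane, GC content, GC content with the block, and leaving out each library. From each of 4 gene lists, genes called in the same direction with both siRNAs were named, at most 4, by the smaller change. Some single-gene results are left out here, and list counts are over the genes that remain. ABCG1, CYP51A1, PMVK, MVK, MVD, TM7SF2, NR1H2, NR1H3 and MYLIP were named after their values were seen. The members and lists were chosen with earlier results of these data known. Figures used Python 3.11.15 and matplotlib 3.10.9.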

Additional observations from a re-analysis of the deposited data

Results flagged for a closer look

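For 6 members the change with siMESH1-7002 differed from that with siMESH1-CDS in the test of the difference (edgeR's quasi-likelihood test over all 12 libraries). Of the 14154 genes tested there, 69.7% differed, and the median difference of all genes was 0.24. The log2 difference was 2.90 for SREBF2 (adjusted p = 0.00536), 0.57 for INSIG1 (adjusted p = 0.0103), 3.66 for LSS (adjusted p = 7.07e-05) and 2.86 for DHCR7 (adjusted p = 0.00249). It was -1.02 for HMGCS1 (adjusted p = 0.000407) and -0.94 for SQLE (adjusted p = 0.000164). SREBF2 alone of the 6 had called changes of opposite sign, -2.36 with siMESH1-CDS and 0.40 with siMESH1-7002. Its fall was not called with the GC correction (-0.29, adjusted p = 0.344), and its rise was not called in the single fit of all 4 groups (adjusted p = 0.722). HMGCS1 and DHCR7 had called changes of the same sign. With the GC correction the differences of SREBF2, LSS and DHCR7 were 0.75, 1.22 and 0.52. Groups of 3 libraries were not tested for single libraries that stand apart.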

How the results depend on the processing

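With siMESH1-CDS 5 members were called, 4 to 7 when a library was left out. With siMESH1-7002 5 were called, 4 to 7 when a library was left out, and 1 in a single fit of all 4 groups. That fit called 2582 of the 14154 genes it tested with siMESH1-7002. Its shared spread (biological coefficient of variation 0.196) is above that of experiment 2 alone (0.0490). The change differed for 6 members, and for 6 to 7 when a library was left out. Samples with the same replicate number did not deviate together (correlations of -0.05, 0.22 and 0.13 in experiment 1 and -0.06, 0.04 and -0.08 in experiment 2), and a replicate block gave 5, 5 and 6 members called.

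Signs turned for INSIG1 with siMESH1-CDS, a change that was called under no setting: -0.0037 with DESeq2, -0.24 with library size scaling, -0.16 with at least 10 counts, -0.12 in the single fit, -0.15 with lane, -0.17 with the GC correction, -0.18 with GC and block, and -0.068 to 0.13 when a library was left out. IDI1 with siMESH1-CDS turned to -0.031 with library size scaling and to -0.48 with the GC correction, alone or with the block. LSS with siMESH1-7002 turned to 0.10 with the GC correction, alone or with the block. The difference between siRNAs turned for IDI1 to 0.11 with library size scaling, 0.042 with at least 10 counts, 0.027 with no filter, 0.018 with the block and 0.63 with the GC correction, alone or with the block, and it ranged from -0.20 to 0.16 when a library was left out. It turned for SC5DL to 0.14 with the GC correction, alone or with the block. The causes were not tested. Of the lists with siMESH1-7002, the single fit called 0 other enzymes higher and 2 lower, 1 gene of SREBP control higher and 2 lower, and 1 of sterol traffic higher. Of all 14154 genes tested, that fit called 1138 higher and 1444 lower. The GC correction called 4 other enzymes and 3 LXR genes higher with siMESH1-7002. With siMESH1-CDS the GC correction called 4 genes of sterol traffic and 0 LXR genes lower, and at least 10 counts left 1 gene of SREBP control and 0 LXR genes lower. Library size scaling and at least 10 counts each called 1 LXR gene lower with siMESH1-7002. Without siMESH1-CDS replicate 3 the difference for FDFT1 was 0.91 (adjusted p = 0.00566).

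Library size scaling moved the median of all genes with siMESH1-CDS from -0.05 to -0.31, and no filter on low counts moved it to -0.16. The lane fit kept 1 residual degree of freedom. In experiment 1 the spread (biological coefficient of variation 0.299) limits what 3 libraries a group can show, so that a member that missed the threshold there is not shown to be stable.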
